A study of Mus musculus with 26 samples.

Results

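MP-positive amacrine cells, called MP amacrine cells here, are 1 of 5 amacrine interneuron populations that were sorted from the mouse retina at postnatal day 6 and profiled on Affymetrix expression arrays. They were chosen by sample label: the 2 arrays labelled MP-positive amacrine were set against the 8 arrays of starburst, AII, J and PaxCre amacrine cells, out of 26 arrays of 13 subtypes in all. MP amacrine cells were sorted as CFP-positive and VC1.1-positive from mice of a mixed C57BL/6 x CD1 background, where CFP is the reporter of the MP line and VC1.1 is an antibody against a surface carbohydrate. Starburst cells were sorted as Kusabira Orange-positive and Thy1-negative, J cells as YFP-positive and PaxCre cells as GFP-positive, each from C57BL/6 mice, and AII cells as GFP-positive from a Swiss Webster x C57BL/6 cross. J cells are labelled a glycinergic and PaxCre cells a GABAergic amacrine subset, and the labels give no transmitter for MP amacrine cells. The MP line also gave MP bipolar cells, sorted from the same strain mix as CFP-positive and VC1.1-negative, and ON bipolar cells came from C57BL/6 mice as GFP-positive cells. Bipolar cells are the neurons that carry photoreceptor signals to the inner retina. Each subtype had 2 biological replicates, which came from different litters, and all retinas were dissociated with papain. The labels name neither the promoter that drives CFP nor the number of mice per sort. Among the amacrine arrays the reporter line, the strain mix and the antibody gate all go with the MP subtype and cannot be told apart from it.

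Amacrine cells shape the signal that bipolar cells pass to ganglion cells, whose axons leave the eye in the optic nerve. Most of them release GABA or glycine, and a smaller group in the mouse retina has been described as using neither. Their identities are set after they leave the cell cycle by transcription factors, among them basic helix-loop-helix (bHLH) factors such as Neurod6, the early B-cell factors (Ebf genes) and the nuclear factor I genes. The AP-2 factors Tfap2a and Tfap2b and the paired-box factor Pax6 are used as markers of the amacrine class as a whole.

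The values are linear intensities per probe set. They were quantile normalized, and levels and differences are given on the log2(intensity + 16) scale, on which an intensity of 1 lies at 4.09. Median intensity was 44.5 and 47.1 on the MP amacrine arrays, against 37.4 to 46.5 on the 8 other amacrine arrays. The pseudocount of 16 makes differences of dim genes smaller than they are on the intensity scale. A gene passed where the groups differed by 1 log2 unit or more and limma gave an adjusted p below 0.05. Errors of differences (±) are standard errors of that fit, which take the spread from the replicate pairs of all 13 subtypes. The 2 MP arrays correlated at r = 0.943 over the 2000 most variable genes, a description with no test.

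As a check of the label, the 15 general amacrine genes on the array had mean levels of 9.14 and 9.12 on the MP amacrine arrays, against 9.29 to 10.29 on the other amacrine arrays. The bipolar arrays lay lower, at 7.30 and 7.22 for MP and 7.27 and 7.33 for ON bipolar cells. Pax6 was at 10.40 and 10.77 in MP amacrine cells, against 9.92, 11.16 and 11.44 as the lowest, median and highest level on the 8 other arrays, and the difference of -0.35 ± 0.21 did not pass (adjusted p = 0.226). The list mean of MP amacrine cells was just under the range of the other amacrine arrays and above the bipolar arrays. Ganglion cell arrays had list means of 7.76 to 9.04, so the highest of them came close to MP amacrine cells. Thy1, the surface protein against which starburst cells were gated, was at 9.94 and 10.82 in MP amacrine cells, against 9.64 and 10.33 in starburst, 8.62 and 8.97 in J, 5.12 and 5.33 in AII and 5.59 and 6.34 in PaxCre cells. It passed as higher by 2.88 ± 0.26 (adjusted p = 3.32e-07), although the MP and starburst arrays overlapped, and MP bipolar cells had it at 11.44 and 11.89.

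MP amacrine cells differed from the other 4 subtypes at 1450 of 13951 tested genes (10.4%). Of these, 716 were higher (5.13% of the tested genes) and 734 lower (5.26%), and the median difference of all tested genes was 0.01. Counts of list members given below are to be read against these shares. For 467 of the higher genes both MP arrays lay above all 8 other amacrine arrays, an order that 8.62% of all tested genes showed. For 365 of the lower genes both lay below all 8, against 6.89% of all tested genes. A smaller set of 155 higher genes was above all 24 remaining arrays (2.29% of all tested genes had that order), ganglion and bipolar cells included, and 118 lower genes were below all of them (1.43%). A gene was tested where at least 2 arrays lay above the overall median, which the MP amacrine arrays alone can meet. For a gene that entered in this way, being above the rest is partly fixed in advance. How many of the 155 did so was not tested. Expressed over all higher and lower calls, 49.4% were higher, and this share moved to 38.7% where arrays were only shifted to the same median and to 44.6% with the columns as deposited. With the mean of each subtype as the unit of replication, limma left 0 genes at an adjusted p below 0.05 (lowest 0.211) and 764 at an unadjusted p below 0.05, so the calls describe these 5 subtypes and were not shown for amacrine cells at large. Probe sets without a single gene name, tested apart, passed at 546 of 6011 (9.08%), with 365 higher (6.07%) and 181 lower (3.01%).

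The largest rise among genes whose 2 groups of arrays did not overlap was that of Neurod6, a neuronal bHLH transcription factor. Neurod6 was at 10.92 and 10.86 on the MP amacrine arrays, against 4.22, 4.41 and 8.17 as the lowest, median and highest level on the 8 other arrays. Its difference was 5.63 ± 0.14 (adjusted p = 1.21e-14), and, since most other arrays were near the lower end, its size depends on the pseudocount, at 6.62 with 4 and 4.29 with 64. J amacrine cells came next with 7.84 and 8.17, and starburst, AII and PaxCre arrays had 4.22 to 4.45, near the lower end of the scale. MP bipolar cells had 4.72 and 4.50, so cells of the same line outside the VC1.1 gate were also near that end.

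**Figure D1:**
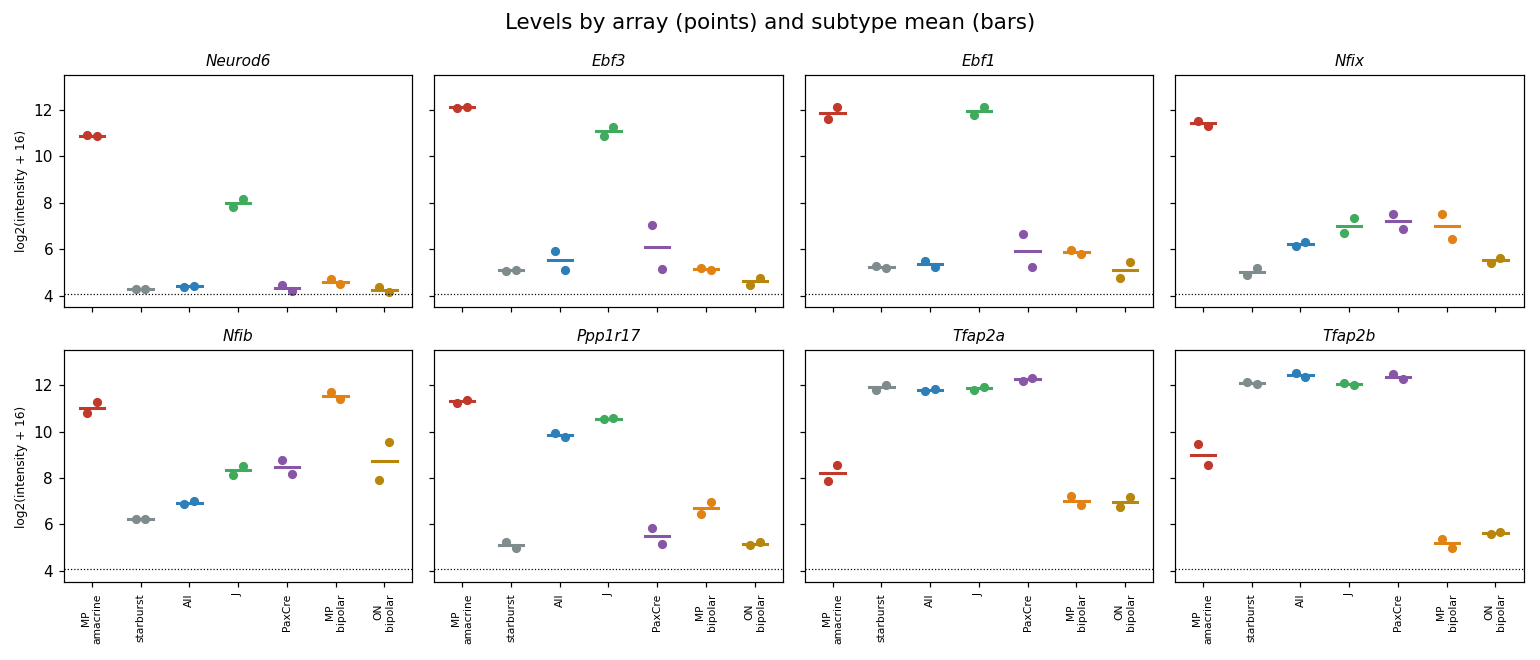
Level (log2 of intensity + 16, vertical axis) of 8 genes on each array of MP amacrine cells, the 4 other amacrine subtypes and the bipolar subtypes (horizontal axis). Points are arrays, bars are means of 2 arrays, and the dotted line is the level of an intensity of 1. Neurod6, Ebf3 and Nfix are highest in MP amacrine cells, Ebf1 is as high in J as in MP amacrine cells, and Tfap2a and Tfap2b are at 7.89 to 9.48 in MP amacrine cells, below every other amacrine array.

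Ebf3, an early B-cell factor with a helix-loop-helix domain, was at 12.10 and 12.13 in MP amacrine cells, against a lowest, median and highest level of 5.08, 5.53 and 11.27 on the other amacrine arrays. The difference was 5.17 ± 0.32 (adjusted p = 4.30e-09). J cells again came closest, with 10.89 and 11.27, and against them alone the difference of 1.04 ± 0.40 did not pass (adjusted p = 0.0851). Ebf1, a paralog, was at 11.62 and 12.13 in MP amacrine cells and 11.78 and 12.14 in J cells, against 5.21 to 6.67 in starburst, AII and PaxCre cells. Its difference from the 4 subtypes was 4.74 ± 0.31 (adjusted p = 9.46e-09), and its difference from J cells was -0.08 ± 0.40 (adjusted p = 0.916), so the groups overlapped through J cells. Of the 6 early B-cell factor genes and partners tested, 3 were higher and 2 lower, with a median difference of 0.88, and without MP amacrine replicate 2 the counts were 2 and 1. Zfp521, a zinc-finger protein known to bind early B-cell factors, was one of the lower ones. It was at 7.09 and 5.81 in MP amacrine cells, against 8.01, 8.87 and 10.55 (lowest, median, highest) on the other amacrine arrays, and both MP arrays lay below all other 24 arrays (difference -2.54 ± 0.36, adjusted p = 6.42e-05).

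Nfix, a nuclear factor I transcription factor, was at 11.53 and 11.33 in MP amacrine cells, against 4.87, 6.50 and 7.54 (lowest, median, highest) on the other amacrine arrays. It differed by 5.06 ± 0.30 (adjusted p = 3.23e-09) and passed against each of the 4 subtypes, with differences of 4.23 from PaxCre to 6.39 from starburst cells. Nfib, from the same family, was at 10.80 and 11.27 in MP amacrine cells, against 6.22, 7.56 and 8.77 on the other arrays, a difference of 3.55 ± 0.49 (adjusted p = 4.96e-05). MP bipolar cells had Nfib at 11.73 and 11.39, against 7.90 and 9.55 in ON bipolar cells. Nfia behaved otherwise: it was at 8.39 and 8.34 in MP amacrine cells, against 11.25 and 11.78 in AII cells and 6.07 to 7.30 in the remaining subtypes, and its difference from the 4 subtypes did not pass (0.49 ± 0.28, adjusted p = 0.221), whereas without AII cells it was 1.71. Of the 4 family members tested, 2 rose and 0 fell.

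Ppp1r17, a protein phosphatase 1 inhibitor, was the 4th of the markers given with the sample set. It was at 11.24 and 11.37 in MP amacrine cells, against 10.54 and 10.58 in J, 9.94 and 9.77 in AII, 5.23 and 4.99 in starburst and 5.83 and 5.15 in PaxCre cells. The difference from the 4 subtypes was 3.55 ± 0.27 (adjusted p = 4.18e-08), yet it came mostly from starburst and PaxCre cells. Against AII cells the difference was 1.45 ± 0.34 (adjusted p = 0.00434), and against J cells 0.75 ± 0.34 (adjusted p = 0.139), which did not pass. The 4 markers were named with earlier results of these arrays known, so their direction is a description. They are also counted among the rises of the lists that hold them. These are the bHLH list (Neurod6), the early B-cell factor list (Ebf3), the nuclear factor I and AII lists (Nfix) and the glycinergic list (Ebf3 and Ppp1r17).

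Sequence 250 bases upstream of the annotated start is shown for Neurod6, Ebf3 and Nfix, the leading transcription factor genes that were higher in MP amacrine cells, and for Tfap2b, which was lower and is described next. The sequences come from RefSeq (GRCm38.p6), run 5′ to 3′ on the gene's strand, and carry matches in capitals, either the E-box CANNTG that bHLH factors bind or the early B-cell factor motif CCCNNGGG, both searched on both strands.
Neurod6 (chr6:55681264-55681513, minus strand): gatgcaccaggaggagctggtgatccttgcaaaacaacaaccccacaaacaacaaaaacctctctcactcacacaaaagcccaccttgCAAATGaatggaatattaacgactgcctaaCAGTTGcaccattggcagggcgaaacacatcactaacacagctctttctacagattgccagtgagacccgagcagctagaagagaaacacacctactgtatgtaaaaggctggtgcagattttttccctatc
Ebf3 (chr7:137314446-137314695, minus strand): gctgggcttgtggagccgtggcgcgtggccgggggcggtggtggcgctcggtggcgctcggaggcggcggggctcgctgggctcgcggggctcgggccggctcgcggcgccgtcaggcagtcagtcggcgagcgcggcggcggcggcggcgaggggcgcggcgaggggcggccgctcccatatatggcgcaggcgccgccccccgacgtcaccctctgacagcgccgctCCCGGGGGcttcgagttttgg
Nfix (chr8:84780083-84780332, minus strand): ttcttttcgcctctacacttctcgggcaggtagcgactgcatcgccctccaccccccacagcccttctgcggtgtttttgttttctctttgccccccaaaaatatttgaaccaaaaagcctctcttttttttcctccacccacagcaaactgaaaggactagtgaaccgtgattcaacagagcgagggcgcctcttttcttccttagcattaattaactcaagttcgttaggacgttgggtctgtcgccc
Tfap2b (chr1:19211804-19212053, plus strand): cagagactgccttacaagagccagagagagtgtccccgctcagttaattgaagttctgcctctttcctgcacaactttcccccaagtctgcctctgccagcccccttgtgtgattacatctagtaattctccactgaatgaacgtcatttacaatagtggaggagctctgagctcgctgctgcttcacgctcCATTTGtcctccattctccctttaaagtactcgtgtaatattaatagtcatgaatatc

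The Neurod6 sequence held E-boxes that began 162 (CAAATG) and 132 (CAGTTG) bases before the start, and the Tfap2b sequence held 1 (CATTTG, 58 bases before the start). The Ebf3 sequence held 1 early B-cell factor match, CCCGGGGG, 21 bases before the start. For Nfix the table lists 4 starts, of which the first is shown, and neither motif occurred in it. E-boxes are common: 66.0% of 27025 promoters of this length held at least 1, and 11.7% held CCCNNGGG. Of the 20 largest rises 14 were in the table, 10 with an E-box and 2 with CCCNNGGG. Among the 20 largest falls 18 were in the table, 10 with an E-box and 3 with CCCNNGGG. A match is a description of letters and not a binding site.

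The AP-2 genes were much lower in MP amacrine cells than in any other amacrine subtype. Tfap2a was at 7.89 and 8.58 in MP amacrine cells, against 11.74, 11.88 and 12.31 (lowest, median, highest) on the 8 other arrays. The difference was -3.72 ± 0.36, 13.2-fold lower in MP amacrine cells (adjusted p = 8.10e-07), and it passed against each subtype. Tfap2b was at 9.48 and 8.55 in MP amacrine cells, against 12.02, 12.18 and 12.54 on the other arrays, a difference of -3.22 ± 0.28 (adjusted p = 2.62e-07). Its next brightest probe set differed by -5.19. The 8 other arrays lay close together for both genes. MP bipolar cells had Tfap2a at 7.23 and 6.83 and Tfap2b at 5.39 and 4.99, so MP amacrine cells lay between the bipolar and the other amacrine arrays. Of 14 general amacrine genes tested, 5 fell and 1 rose, with a median difference of -0.58, and over the alternatives other than subtype means 4 to 6 fell and 1 to 3 rose. Elavl4, a neuronal RNA-binding protein, was among those that fell (-2.56), although starburst cells had it as low, at 7.31 and 6.99, as MP amacrine cells, at 7.80 and 7.46. Neurod4, a bHLH factor of amacrine and bipolar precursors, was the one that rose (2.61).

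Among 20 bHLH genes tested, 8 were higher and 2 lower in MP amacrine cells, with a median difference of 0.73, and without MP amacrine replicate 1 the counts were 7 and 1. The 8 and 2 are 40% and 10% of the list, against 5.13% and 5.26% of all tested genes. Besides Neurod6 and Neurod4, Nhlh1, a bHLH factor of differentiating neurons, was at 7.90 and 8.02 in MP amacrine cells, against 5.05, 5.59 and 7.39 (lowest, median, highest) on the other amacrine arrays (difference 2.05 ± 0.44, adjusted p = 0.00248). Both MP arrays lay above all other arrays for it, although AII cells, at 7.39 and 6.82, came near. Tcf4, an E-protein partner of neuronal bHLH factors, was at 12.70 and 12.86 in MP amacrine cells, against 12.30 and 12.35 in J, 11.996 and 12.10 in AII, 10.23 and 9.39 in PaxCre and 8.98 and 7.74 in starburst cells (difference 2.14 ± 0.40, adjusted p = 8.29e-04). Hes6, a factor that promotes neuronal differentiation, was at 10.83 and 10.70 in MP amacrine cells, against 7.29, 9.24 and 10.04 on the other arrays. Id4, an inhibitor that binds E-proteins, was at 6.19 and 7.42 in MP amacrine cells and 6.20 and 7.62 in AII cells, against 10.48 to 12.60 in starburst, J and PaxCre cells. Its difference of -3.76 ± 0.33 passed (adjusted p = 2.65e-07), with MP and AII arrays overlapping, and the median over its probe sets differed by -2.34. Neurod2, a close relative of Neurod6, was at 10.33 and 9.40 in MP amacrine cells, against 11.48 and 11.01 in AII and 4.64 to 9.37 in the remaining subtypes. Its difference of 2.10 ± 0.60 (adjusted p = 0.016) was not past the threshold without MP amacrine replicate 1, where it was 1.64, nor in several other alternatives, down to 0.79 with the median over probe sets.

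Of 44 homeobox and LIM genes, 6 were higher and 5 lower, with a median difference of 0.08, and 2 were higher with the median over probe sets. The 6 and 5 are 13.6% and 11.4% of the list, against 5.13% and 5.26% of all tested genes. Six6, an eye-field homeobox gene, was at 11.25 and 11.32 in MP amacrine cells, against 8.60, 9.92 and 10.99 (lowest, median, highest) on the other amacrine arrays, a difference of 1.52 ± 0.20 (adjusted p = 2.78e-05). Otx2, a homeobox gene of photoreceptors and bipolar cells, was at 10.78 and 10.997 in MP amacrine cells, against 7.53, 9.01 and 10.21 on the other amacrine arrays and 12.07 and 12.07 in MP bipolar cells (difference 1.97 ± 0.39, adjusted p = 0.00137). Pbx3, a homeobox cofactor, was at 5.95 and 6.27 in MP amacrine cells, against 8.08, 9.70 and 10.97 on the other amacrine arrays (difference -3.49 ± 0.23, adjusted p = 8.10e-09). Over the probe sets of Pbx3 the median difference was -2.25. Lhx9, a LIM homeobox gene, was at 5.26 and 4.39 in MP amacrine cells, a level shared by starburst (4.56 and 5.41) and AII cells (4.74 and 4.52), against 7.86 and 7.86 in J and 11.002 and 10.75 in PaxCre cells. Nr4a2, a nuclear receptor, was likewise low in MP amacrine, starburst and AII cells, with 5.85 and 7.06 in MP amacrine cells, against 12.24 and 11.83 in J, 11.08 and 10.86 in PaxCre, 6.92 and 6.87 in starburst and 6.36 and 5.26 in AII cells. The difference from the 4 subtypes was -2.26 ± 0.33 for Lhx9, or -0.997 and not past the threshold without PaxCre cells, and -2.47 ± 0.37 for Nr4a2 (adjusted p = 8.12e-05 and 1.02e-04). The median over the probe sets of Nr4a2 differed by -1.15. Prdm8, a zinc-finger repressor found in amacrine and bipolar cells, was at 12.33 and 12.55 in MP amacrine cells and 12.26 and 11.99 in PaxCre cells, against 10.996 and 10.84 in J, 8.10 and 8.40 in AII and 5.75 and 4.63 in starburst cells. Its difference of 3.32 ± 0.33 from the 4 subtypes (adjusted p = 1.14e-06) therefore held little of PaxCre cells (0.32 ± 0.42, adjusted p = 0.618).

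Among the transmitter genes, Gad1 was low and Slc6a9 lay between the glycinergic and the GABAergic subtypes in MP amacrine cells. Gad1, an enzyme that makes GABA, was at 5.95 and 6.45 in MP amacrine cells and at 5.78 and 5.73 in AII cells, which are glycinergic. The other subtypes were far higher, with 11.24 and 10.40 in J, 12.19 and 12.59 in starburst and 12.15 and 12.44 in PaxCre cells. The difference of Gad1 from the 4 subtypes was -4.12 ± 0.38 (adjusted p = 4.15e-07). Its difference from AII cells alone was 0.45 ± 0.48 (adjusted p = 0.58). The next brightest probe set of Gad1 differed by -0.39, and the median over probe sets by -2.25. Gad2, the other GABA-making enzyme, was at 7.83 and 8.13 in MP amacrine cells, against 7.26, 8.03 and 8.42 (lowest, median, highest) on the other arrays, all subtypes overlapping (0.06 ± 0.20, adjusted p = 0.871), and this probe set was also at 7.49 and 7.21 in ON bipolar cells.

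**Figure D2:**
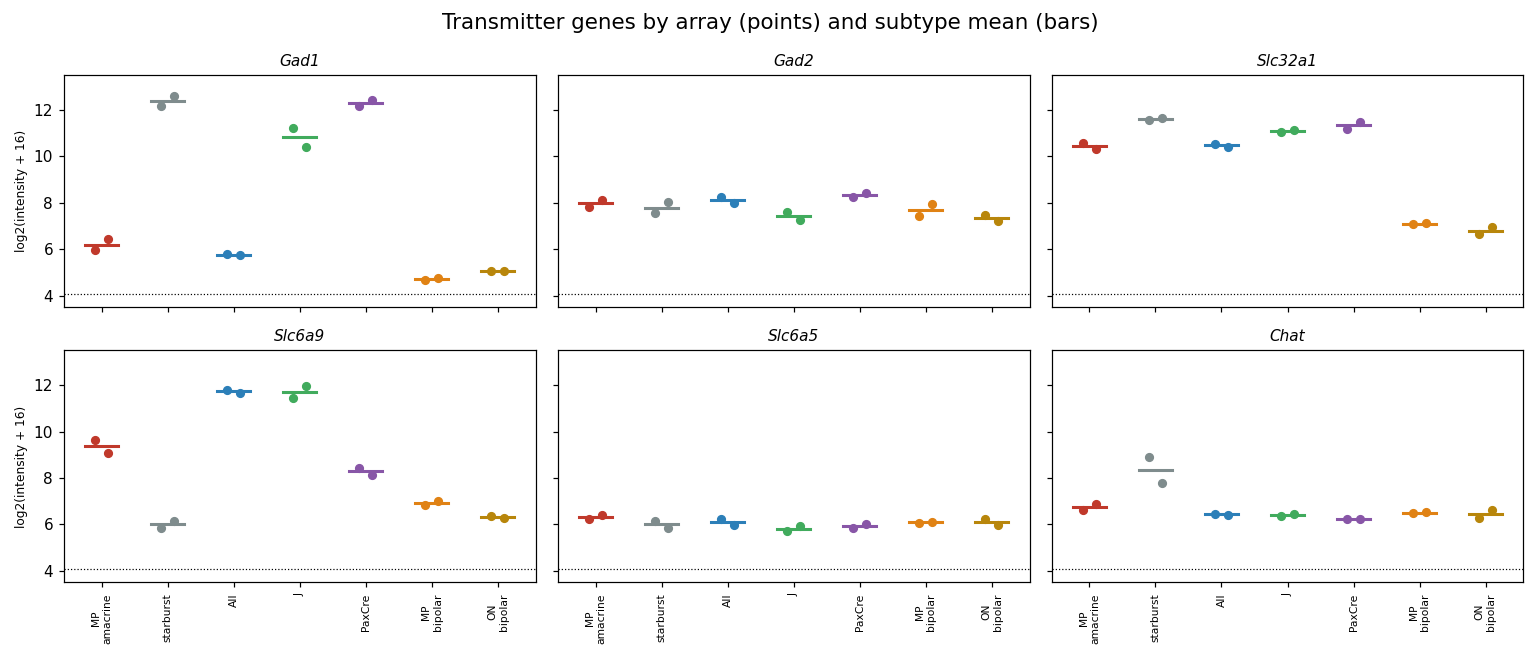
Level (log2 of intensity + 16, vertical axis) of 6 transmitter genes on each array of MP amacrine cells, the 4 other amacrine subtypes and the bipolar subtypes (horizontal axis). Points are arrays, bars are means of 2 arrays, and the dotted line is the level of an intensity of 1. Gad1 is at 5.95 and 6.45 in MP amacrine cells, as low as in AII cells, and Slc6a9 is at 9.66 and 9.08, between AII and J cells on one side and PaxCre and starburst cells on the other.

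Slc6a9 encodes the glycine transporter GlyT1, which glycinergic amacrine cells carry. It was at 9.66 and 9.08 in MP amacrine cells, against 11.81 and 11.68 in AII, 11.43 and 11.95 in J, 8.44 and 8.13 in PaxCre and 5.86 and 6.17 in starburst cells. MP amacrine cells were lower than both glycinergic subtypes, with a difference of -2.38 ± 0.22 from AII and -2.32 ± 0.22 from J cells (adjusted p = 4.49e-07 and 1.41e-06). They were higher than PaxCre cells by 1.08 ± 0.22 and than starburst cells by 3.35 ± 0.22 (adjusted p = 0.00179 and 2.78e-09). The average over the 4 subtypes, -0.07 ± 0.18 (adjusted p = 0.816), runs across this order. Slc32a1, the vesicular transporter of both GABA and glycine, was at 10.56 and 10.34 in MP amacrine cells, against 10.42, 11.16 and 11.65 (lowest, median, highest) on the other amacrine arrays and 7.10 and 7.12 in MP bipolar cells. Its difference of -0.68 ± 0.20 was under 1 log2 unit (adjusted p = 0.0176), so it did not pass. Slc6a5, the neuronal glycine transporter GlyT2, was at 6.23 and 6.39 in MP amacrine cells, against 5.73 to 6.24 on the other amacrine arrays (0.34 ± 0.14, adjusted p = 0.0878). Chat, which makes acetylcholine in starburst cells, was at 6.61 and 6.87 in MP amacrine cells, against 8.91 and 7.79 in starburst cells. The vesicular glutamate transporter Slc17a6, which ganglion cells use, was at 6.81 and 6.46 in MP amacrine cells, against 4.56 to 6.64 on the other amacrine arrays and 11.36 to 12.23 on ganglion cell arrays. Its difference from the 4 subtypes did not pass (0.81 ± 0.35, adjusted p = 0.0957), except without J amacrine replicate 2, where it was 1.08. The 7 glycine synthesis and transport genes and the 13 cholinergic and monoamine genes tested gave 0 calls in either direction in limma. Of 6 GABA synthesis and transport genes, Gad1 fell, and 1 rose by a margin that was lost without either MP replicate, with the columns as deposited and in many other alternatives. Of 7 glutamate transport genes 0 rose and 1 fell (2 without MP amacrine replicate 2).

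J amacrine cells were the nearest of the 4 subtypes to MP amacrine cells. Correlations with the MP arrays over the 2000 most variable genes were 0.734 to 0.755 for J, 0.692 to 0.709 for AII, 0.616 to 0.680 for PaxCre and 0.484 to 0.537 for starburst arrays, as a description. Bipolar arrays were not farther than all of these, at 0.629 to 0.697 for MP and 0.563 to 0.658 for ON bipolar cells. Both bipolar ranges lay above that of starburst arrays and overlapped that of PaxCre arrays. Pairwise, 1434 genes passed against J cells (10.3% of those tested, 5.06% higher and 5.22% lower) and 1997 against AII cells (14.3%, 8.95% higher and 5.36% lower). PaxCre cells differed at 2070 genes (14.8%, 5.78% higher and 9.05% lower), and starburst cells at 2531 (18.1%, 8.7% higher and 9.44% lower). These comparisons share the MP arrays. The J replicates were the least alike, with 189 genes at least 2 log2 units apart, against 40 in MP amacrine cells, and this spread enters the error of each gene. Of 10 genes of glycinergic amacrine cells tested, 4 rose in MP amacrine cells against the 4 subtypes, namely Ebf3, Ebf1, Ppp1r17 and Tcf4, and 1 fell (0 without MP amacrine replicate 2). Of these, Ebf3 and Ppp1r17 are markers given with the sample set, whose rise was known beforehand. Of 8 genes of GABAergic amacrine cells 1 rose (0 without MP amacrine replicate 2) and 2 fell, of 12 starburst genes 1 rose and 3 fell, and of 11 AII genes 3 rose and 4 fell. Without starburst cells 0 starburst genes fell, without either MP replicate 0 of them rose, and without MP amacrine replicate 2 the AII counts were 2 and 1. Over all tested genes 5.13% rose and 5.26% fell, and 1 of 12 genes is 8.33%. A single call in a list this short is therefore not read as a result about the list. Of the 1434 calls against J cells 49.2% were higher, which moved to 35.7% after a shift to the same median, and the share for PaxCre cells moved likewise, to 27.4% of its calls, against 39.0%.

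Several genes set MP amacrine cells apart from J cells as well as from the rest. Rgs13, a regulator of G-protein signalling, was at 10.07 and 10.12 in MP amacrine cells, against 4.14 to 5.18 on the starburst, AII and PaxCre arrays and 4.53 and 7.51 on the J arrays (difference 5.22 ± 0.44, adjusted p = 1.69e-07). The J replicates were far apart for it, both lay below the MP arrays, and the difference from J cells was 4.08 ± 0.56 (adjusted p = 6.38e-05). Gpr149, an orphan G-protein-coupled receptor, was at 8.06 and 7.33 in MP amacrine cells, against 4.14, 4.24 and 4.64 (lowest, median, highest) on the other amacrine arrays, all close to the lower end of the scale (difference 3.40 ± 0.18, adjusted p = 1.57e-09). From J cells alone it differed by 3.27 ± 0.23 (adjusted p = 5.23e-08). Ganglion cells, at 5.03 to 5.90, were also below it. Ephb1, a receptor for ephrin-B ligands, was at 10.61 and 10.84 in MP amacrine cells, against 6.97, 7.98 and 9.73 on the other amacrine arrays (difference 2.55 ± 0.19, adjusted p = 4.45e-08), and differed by 1.15 ± 0.24 from J cells (adjusted p = 0.0033).

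Other large rises were shared with J cells in part. Cacna2d3, an auxiliary calcium channel subunit, was at 11.52 and 11.48 in MP amacrine cells, against 10.07 and 10.19 in J cells and 5.35 to 6.57 in the other subtypes (difference 4.54 ± 0.27, adjusted p = 4.02e-09). MP and ON bipolar cells had it at 10.26 and 10.47 and at 10.73 and 9.33. Frem1, a basement membrane protein, was at 10.81 and 10.90 in MP amacrine cells, against 9.45 and 9.84 in J, 7.67 and 8.01 in AII, 7.15 and 7.05 in PaxCre and 4.33 and 4.57 in starburst cells (difference 3.60 ± 0.30, adjusted p = 1.34e-07). Nckap5, which encodes a protein that binds the adaptor NCK, was as high in AII cells, at 11.36 and 11.38, as in MP amacrine cells, at 11.50 and 11.71, and its difference from the 4 subtypes was 3.44 ± 0.45 (adjusted p = 2.32e-05). Resp18, a protein of neuroendocrine secretory granules, was at 10.24 and 9.56 in MP amacrine cells, against 4.19, 6.99 and 8.22 (lowest, median, highest) on the other amacrine arrays and 10.40 to 11.29 on the ganglion cell arrays.

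Further members of the 20 largest rises are less well characterised or have roles known outside neurons. AI504432 rose by 3.66 ± 0.21, 9130024F11Rik by 3.94 ± 0.43, 2310067E19Rik by 3.48 ± 0.31 and Gm17750 by 3.38 ± 0.43. The second probe set of 2310067E19Rik differed by only 0.60, and the median over its probe sets by 2.04. Terb1, which attaches telomeres in meiosis, rose by 3.26 ± 0.66 (adjusted p = 0.00147), and Snord104, a small nucleolar RNA, rose by 3.36 ± 0.54 (adjusted p = 2.17e-04). Selenop, a secreted selenoprotein, was at 10.32 and 11.61 in MP amacrine cells, against 9.62 and 4.80 in J cells and 5.18 to 8.41 in the other subtypes. Its difference of 4.36 ± 1.09 (adjusted p = 0.00704) had the largest error of these genes and did not pass without MP amacrine replicate 2, where it was 3.72 (adjusted p = 0.117). Gngt1, the gamma subunit of rod transducin, is taken up with the rod genes.

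**Figure D3:**
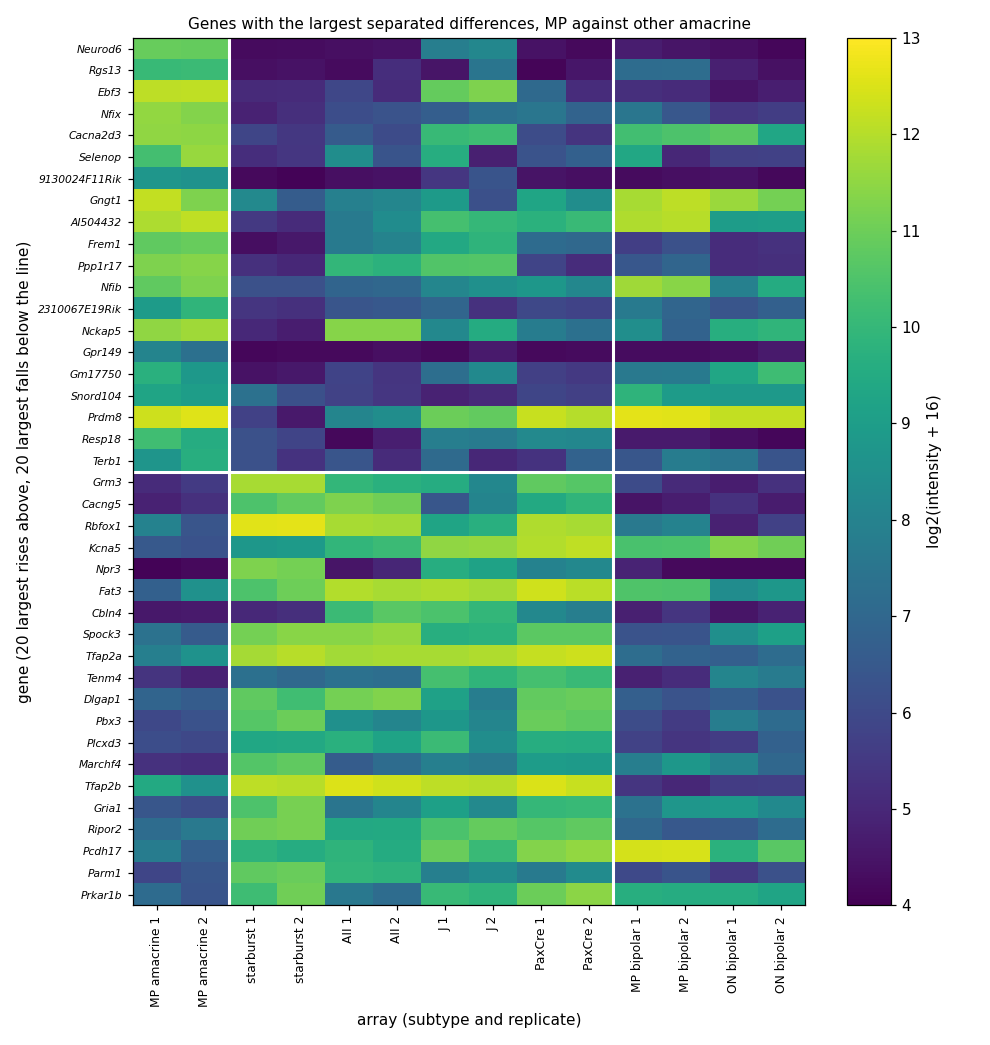
Level (colour, log2 of intensity + 16) of the 20 genes with the largest rise and the 20 with the largest fall among genes whose 2 MP amacrine arrays lay above or below all 8 other amacrine arrays. Columns are arrays, with MP amacrine cells at the left, the 4 other amacrine subtypes in the middle and bipolar cells at the right. Many of the falls, such as Grm3 and Tfap2a, are as low or lower in bipolar cells as in MP amacrine cells, and of the arrays shown Neurod6 is above 5 only in MP amacrine and J cells.

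The largest fall among genes without overlap was that of Grm3, a metabotropic glutamate receptor. Grm3 was at 5.12 and 5.53 in MP amacrine cells, against 8.17, 10.29 and 11.84 (lowest, median, highest) on the other amacrine arrays, a difference of -4.99 ± 0.32 (adjusted p = 8.10e-09), which was -5.50 with a pseudocount of 4 and -3.92 with 64. Bipolar cells of both kinds were as low, at 6.05 and 5.06 for MP and 4.70 and 5.29 for ON bipolar cells. Cacng5, an auxiliary subunit of AMPA receptors, was at 4.85 and 5.25 in MP amacrine cells, against 6.41, 10.20 and 11.27 on the other amacrine arrays (difference -4.63 ± 0.28, adjusted p = 4.12e-09), but its second probe set differed by -0.45 and the median of its probe sets by -2.54. Gria1, an AMPA receptor subunit, was at 6.40 and 6.07 in MP amacrine cells, against 7.51, 9.56 and 11.16 on the other amacrine arrays, and Gria3, another, was at 7.27 and 7.97, against 9.53, 10.51 and 11.72. Their differences were -3.10 ± 0.30 and -2.96 ± 0.18 (adjusted p = 8.85e-07 and 4.12e-09), and for Gria1 both MP arrays were below all other arrays of the series. Of 20 glutamate receptor genes tested, 7 fell and 2 rose, with a median difference of -0.16. That is 35% lower and 10% higher, against 5.26% and 5.13% of all tested genes. Grik3, a kainate receptor subunit, was at 8.40 and 8.03 in MP amacrine cells, against 4.14, 4.95 and 7.59 on the other amacrine arrays, and rose by 2.85 ± 0.28 (adjusted p = 1.18e-06), with 1.43 for the median of its probe sets.

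Rbfox1, a neuronal splicing regulator, was at 8.01 and 6.38 in MP amacrine cells, against 9.25, 11.83 and 12.63 (lowest, median, highest) on the other amacrine arrays (difference -4.25 ± 0.31, adjusted p = 3.37e-08). Kcna5, a delayed-rectifier potassium channel, was at 6.52 and 6.26 in MP amacrine cells, against 8.78, 10.82 and 12.13 on the other amacrine arrays and 10.41 and 10.44 in MP bipolar cells (difference -4.22 ± 0.40, adjusted p = 6.48e-07). Both genes thus separated MP amacrine cells from every other amacrine array, and for Kcna5 the line's bipolar cells lay with the other amacrine cells. Npr3, the clearance receptor of natriuretic peptides, was at 4.09 and 4.23 in MP amacrine cells, at the lower end of the scale. AII cells were nearly as low, at 4.52 and 4.95, against 11.27 and 11.11 in starburst, 9.61 and 9.17 in J and 8.00 and 8.21 in PaxCre cells, and the difference of -4.20 ± 0.19 (adjusted p = 1.74e-10) became -1.91 with the median over probe sets. Dlgap1, a scaffold of excitatory synapses, was at 6.90 and 6.60 in MP amacrine cells, against 7.83, 10.82 and 11.31 on the other amacrine arrays (difference -3.53 ± 0.26). Among the remaining large falls, the difference was -3.39 ± 0.44 for Plcxd3, and Marchf4, an E3 ubiquitin ligase, differed by -3.34 ± 0.24. Parm1 differed by -3.06 ± 0.22 (-1.93 with the median over probe sets) and Prkar1b, a regulatory subunit of protein kinase A, by -3.05 ± 0.24 (-1.63). Ripor2, an inhibitor of the GTPase RhoA, differed by -3.08 ± 0.20, but its call was lost with the median over probe sets, which was -0.56. Spock3, a proteoglycan, differed by -3.82 ± 0.23, while its second probe set differed by 0.59 and the median over probe sets by -1.62.

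Cell adhesion genes fell more often than they rose in MP amacrine cells, most clearly the cadherins. Of 19 cadherin and delta protocadherin genes tested, 10 fell and 1 rose, a median difference of -1.05. Over the alternatives other than subtype means 6 to 11 fell and 1 to 3 rose, the fewest falls with the median over probe sets. The low level was shared with AII cells: the list mean was 7.17 and 7.01 on the MP amacrine and 7.20 and 7.16 on the AII arrays. Starburst, J and PaxCre arrays had 7.74 to 8.89. Pcdh17 was at 7.80 and 6.72 in MP amacrine cells, against 9.53, 9.96 and 11.53 (lowest, median, highest) on the other amacrine arrays and 12.41 and 12.46 in MP bipolar cells, and it was the lowest of all 26 arrays in both MP replicates (difference -3.07 ± 0.29, adjusted p = 5.29e-07). Pcdh9 was at 8.31 and 7.77 in MP amacrine cells, against 6.45 and 6.87 in AII cells and 9.96 to 11.88 in the other subtypes (difference -1.99 ± 0.20, adjusted p = 1.59e-06). Cdh1, or E-cadherin, which differed by -3.07 ± 0.29 on average, split the subtypes: it was at 4.81 and 4.65 in MP amacrine, 4.70 and 4.50 in J and 4.65 and 4.30 in PaxCre cells, against 10.77 and 10.92 in starburst and 11.17 and 11.41 in AII cells. Fat3, a giant atypical cadherin that shapes amacrine dendrites in the mouse, was at 6.75 and 8.54 in MP amacrine cells, against 10.49, 11.88 and 12.33 on the other amacrine arrays. Its difference was -4.03 ± 0.31 (adjusted p = 6.69e-08), and the MP replicates were farther apart than for most of these genes.

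**Figure D4:**
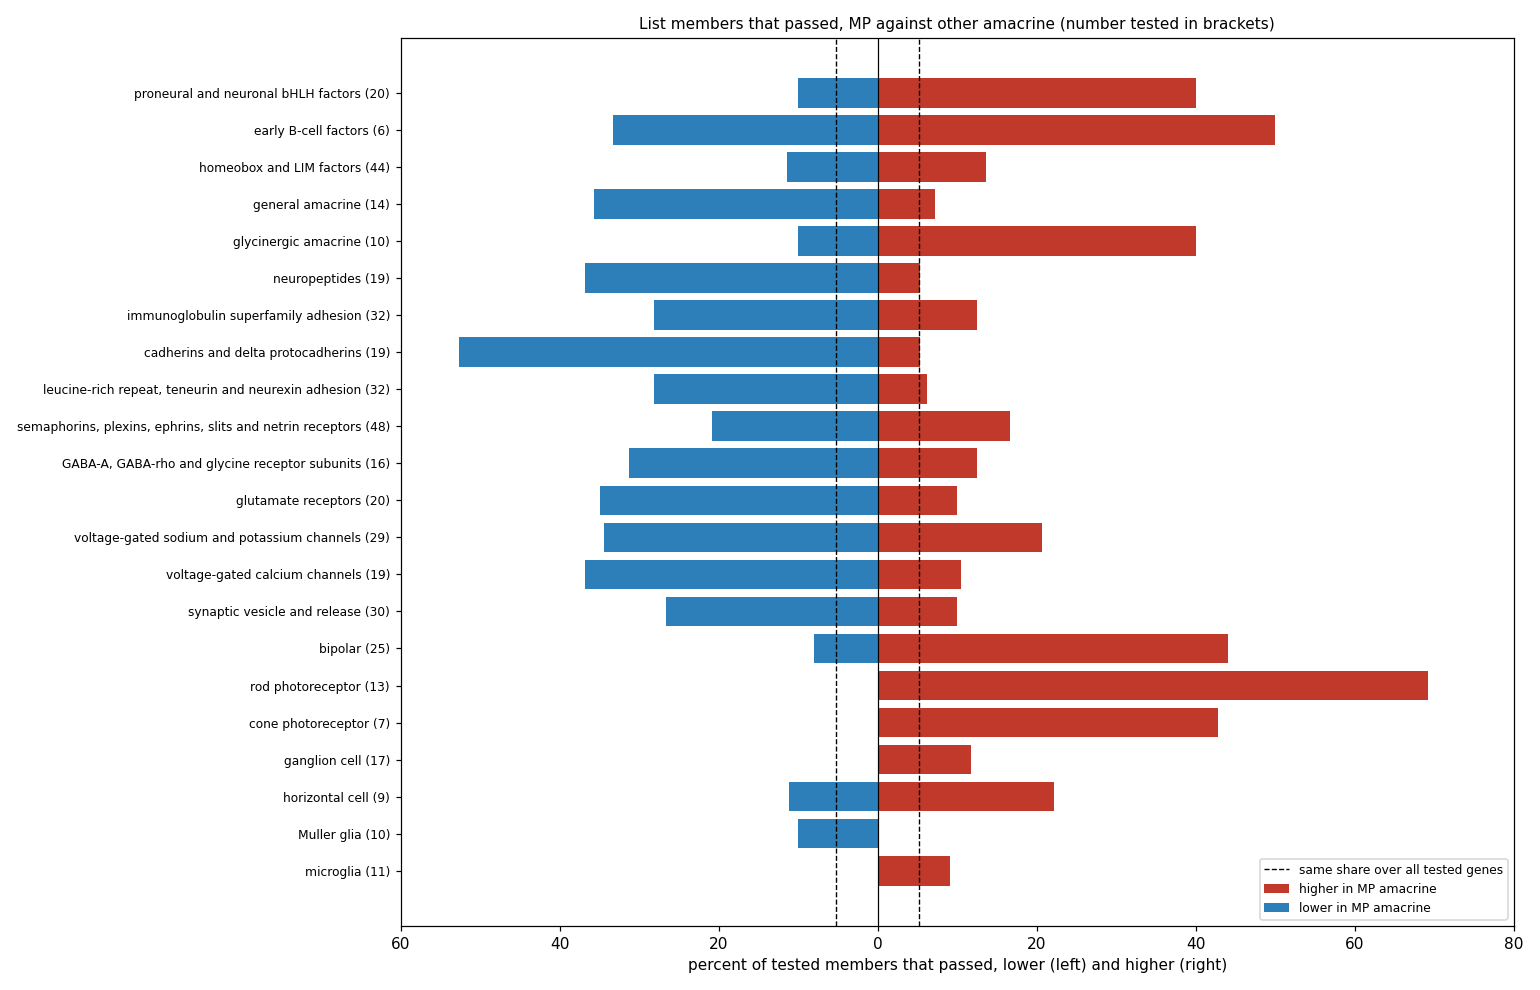
Percent of tested members of 22 gene lists that passed as higher (right) or lower (left) in MP amacrine cells against the 4 other amacrine subtypes, with the number tested in brackets. Dashed lines mark the same shares over all 13951 tested genes, 5.13% higher and 5.26% lower. Of the 22 lists drawn, the rod list reaches farthest to the right, followed by early B-cell factors, bipolar, cone, bHLH and glycinergic amacrine lists, and cadherins reach farthest to the left. The early B-cell factor, bHLH and glycinergic lists hold markers given with the sample set (Ebf3, Neurod6, and Ebf3 with Ppp1r17), whose rise was known beforehand.

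Among 32 leucine-rich repeat, teneurin and neurexin genes tested, 9 fell and 2 rose (4 without J amacrine replicate 1), with a median difference of -0.48. AII cells had the list as low, with a mean of 7.47 and 7.48, as MP amacrine cells, with 7.47 and 7.46. Starburst, J and PaxCre arrays had 7.92 to 8.89. Tenm4, a teneurin that bridges synaptic partners, was at 5.35 and 4.88 in MP amacrine cells, against 7.06, 8.62 and 10.34 (lowest, median, highest) on the other amacrine arrays (difference -3.59 ± 0.26, adjusted p = 2.77e-08). Several cerebellins, secreted organisers of synapses, fell, with differences of -3.84 ± 0.34 for Cbln4, -2.69 ± 0.33 for Cbln2 and -1.59 ± 0.18 for Cbln1. Cbln4 was at 4.58 and 4.64 in MP amacrine cells and 5.03 and 5.23 in starburst cells, against 7.83 to 10.70 in the other subtypes. Flrt2, an adhesion and repulsion receptor, was at 6.44 and 6.21 in MP amacrine cells, against 6.97, 9.42 and 10.72 on the other amacrine arrays (difference -2.84 ± 0.26, adjusted p = 4.15e-07). Ntng1, a netrin-like membrane protein, rose by 1.94 ± 0.25 and was as high in PaxCre cells, at 8.23 and 8.83, as in MP amacrine cells, at 8.70 and 8.51.

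Of 32 immunoglobulin superfamily adhesion genes, 9 fell and 4 rose, with a median difference of -0.19. Without MP amacrine replicate 2, or without J amacrine replicate 1, 2 of them rose. The mean of this list was 8.01 and 7.95 on the MP amacrine arrays and lower in AII cells, at 7.76 and 7.82. Starburst, J and PaxCre arrays had 8.23 to 8.86. Lsamp, a GPI-anchored adhesion protein, was at 7.98 and 8.42 in MP amacrine cells, against 10.35, 10.65 and 10.94 (lowest, median, highest) on the other amacrine arrays (difference -2.43 ± 0.18, adjusted p = 3.46e-08). Cntnap2, a contactin-associated protein, was at 8.59 and 6.86 in MP amacrine cells, against 9.21, 9.92 and 12.55 on the other amacrine arrays, and both MP arrays were below all others of the series (difference -2.71 ± 0.28). The median over its probe sets differed by -4.23. Cntn6, a contactin, went the other way, at 10.40 and 10.35 in MP amacrine cells, against 6.97, 8.98 and 9.90 on the other amacrine arrays (difference 1.59 ± 0.23, adjusted p = 6.30e-05).

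Guidance genes moved in both directions. Of 48 semaphorin, plexin, ephrin, slit and netrin receptor genes, 8 rose and 10 fell (6 without MP amacrine replicate 2, and 4 and 5 with the median over probe sets), with a median difference of -0.19. Besides Ephb1, Nrp2, a semaphorin co-receptor, rose by 2.46 ± 0.25, at 10.93 and 10.90 in MP amacrine cells and 10.78 and 11.41 in J cells, against 5.85 to 9.71 in the other subtypes. The netrin receptor Unc5d rose by 2.14 ± 0.28, at 9.83 and 9.80 in MP amacrine cells, against 9.81 and 10.37 in PaxCre cells and 5.12 to 9.12 in the other subtypes. Its relative Unc5c differed by -2.55 ± 0.30 and was at 5.82 and 6.58 in MP amacrine cells and 5.80 and 5.94 in AII cells, against 8.92 to 10.50 in starburst, J and PaxCre cells.

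Ion channel and inhibitory receptor lists changed in both directions, with more falls than rises. Over all tested genes 5.13% were higher and 5.26% lower. The shares higher and lower were 20.7% and 34.5% for sodium and potassium channels. They were 10.5% and 36.8% for the calcium channel list, and 12.5% and 31.25% for the inhibitory receptor list. Of 29 voltage-gated sodium and potassium channel genes, 10 fell and 6 rose (5 fell and 0 rose with the median over probe sets, 9 and 3 without starburst cells), with a median difference of -0.17. The mean of this list was 7.26 and 7.27 on the MP amacrine arrays, slightly above starburst and AII arrays at 7.02 to 7.21. J and PaxCre arrays were higher, at 7.72 to 8.23. Kcnc2, a fast delayed-rectifier subunit, was at 5.88 and 6.30 in MP amacrine cells, against 6.64, 8.74 and 9.69 (lowest, median, highest) on the other amacrine arrays (difference -2.34 ± 0.19, adjusted p = 1.18e-07). Kcnd3, a subunit of A-type potassium channels, was at 12.09 and 12.11 in MP amacrine cells, against 7.48, 9.20 and 11.61 on the other amacrine arrays, and rose by 2.72 ± 0.17 (adjusted p = 6.83e-09), but by only 0.63 with the median over its probe sets. Of 19 genes on the calcium channel list, 7 fell (4 without MP amacrine replicate 2) and 2 rose, with a median difference of -0.59. This list also holds Cacng genes, and Cacng5, the auxiliary subunit of AMPA receptors given above, is among those that fell. Its mean was 7.49 and 7.37 on the MP amacrine and 7.39 and 7.38 on the AII arrays, against 7.80 to 8.17 in starburst, J and PaxCre cells. Cacna1h, a T-type calcium channel, was at 6.61 and 6.89 in MP amacrine cells, against 7.85, 8.83 and 10.01 on the other amacrine arrays (difference -2.08 ± 0.26, adjusted p = 1.30e-05). Of 16 genes tested from a list of GABA and glycine receptor subunits, which also named the GABA-B subunits, 5 fell and 2 rose (1 without MP amacrine replicate 1). Their median difference was -0.31. The list mean was 7.18 and 6.85 in MP amacrine cells, near AII cells at 7.15 and 7.13. Starburst, J and PaxCre arrays had 7.41 to 7.84. Glra3, a glycine receptor subunit, was at 4.30 and 5.17 in MP amacrine cells and 4.32 and 4.27 in starburst cells, against 6.40 to 10.30 in the other subtypes, and its difference of -2.53 ± 0.38 became -1.15 with the median over probe sets.

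Synaptic vesicle genes tested numbered 30, of which 8 fell (5 without MP amacrine replicate 1) and 3 rose (1 without replicate 2), with a median difference of -0.47. The 8 and 3 are 26.7% and 10% of the list, against 5.26% lower and 5.13% higher over all tested genes. The list mean was 8.73 and 8.77 on the MP amacrine arrays, level with AII cells at 8.79 and 8.65. Starburst, J and PaxCre arrays had 9.04 to 9.66. Sv2b, a vesicle glycoprotein, was at 10.86 and 10.98 in MP amacrine cells, against 10.54 and 10.25 in AII cells and 6.44 to 9.19 in the other subtypes (difference 2.76 ± 0.27, adjusted p = 1.13e-06). Over its probe sets the median difference of Sv2b was 1.82. Its relative Sv2a was at 8.83 and 8.66 in MP amacrine cells, against 9.54, 9.92 and 10.82 (lowest, median, highest) on the other amacrine arrays, a difference of -1.35 ± 0.23 (adjusted p = 2.93e-04). Of 19 neuropeptide and secretory granule genes, 7 fell and 1 rose (4 and 2 without MP amacrine replicate 2), with a median difference of -0.78. Here too AII cells were as low or lower, with a list mean of 5.44 and 5.42, against 5.99 and 5.53 in MP amacrine cells. Starburst, J and PaxCre arrays had 6.34 to 6.97. Scg2, a granin, was at 7.41 and 6.78 in MP amacrine cells and 6.39 and 7.70 in AII cells, against 9.27 to 12.41 in the other subtypes (difference -2.77 ± 0.37). Chga, another granin, was at 8.89 and 8.78 in MP amacrine cells, against 9.27, 10.42 and 10.93 on the other amacrine arrays (difference -1.44 ± 0.17, adjusted p = 6.52e-06). Nxph3, a ligand of neurexins, was the one that rose, at 10.29 and 9.60 in MP amacrine cells, against 5.78, 7.83 and 9.40 on the other amacrine arrays and 10.94 and 10.97 in MP bipolar cells (difference 2.24 ± 0.21, adjusted p = 4.72e-07).

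Genes of photoreceptors and bipolar cells were also higher on the MP amacrine arrays. Of 13 rod genes tested, 9 rose and 0 fell, a median difference of 1.62, where 0.01 was the median of all tested genes. The 9 are 69.2% of the list, against 5.13% higher over all tested genes. Without MP amacrine replicate 1, 5 rose and 1 fell. Nrl, a transcription factor of rods, was at 11.20 and 10.51 in MP amacrine cells, against 7.51, 8.57 and 9.95 (lowest, median, highest) on the other amacrine arrays and 10.03 and 9.94 in MP bipolar cells (difference 2.29 ± 0.38, adjusted p = 2.76e-04). Gngt1 was at 12.18 and 11.26 in MP amacrine cells, against 6.20, 8.18 and 9.29 on the other amacrine arrays and 11.84 and 12.09 in MP bipolar cells (difference 3.75 ± 0.78, adjusted p = 0.00186). Pde6b, a rod phosphodiesterase subunit, rose by 2.39 ± 0.45 (adjusted p = 8.26e-04). The mean level of the rod list was 8.70 and 8.15 on the MP amacrine arrays, against 6.68 to 7.77 on the other amacrine arrays, 8.29 and 8.56 in MP bipolar and 8.47 and 7.99 in ON bipolar cells. Of 7 cone genes, 3 rose and 0 fell, and the list mean was 6.88 and 6.56, against 5.73 to 6.16 on the other amacrine arrays. Gnat2, the alpha subunit of cone transducin, was at 9.44 and 9.51 in MP amacrine cells, above all other arrays, against 7.30, 7.42 and 8.31 on the other amacrine arrays (difference 1.82 ± 0.16, adjusted p = 2.65e-07).

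**Figure D5:**
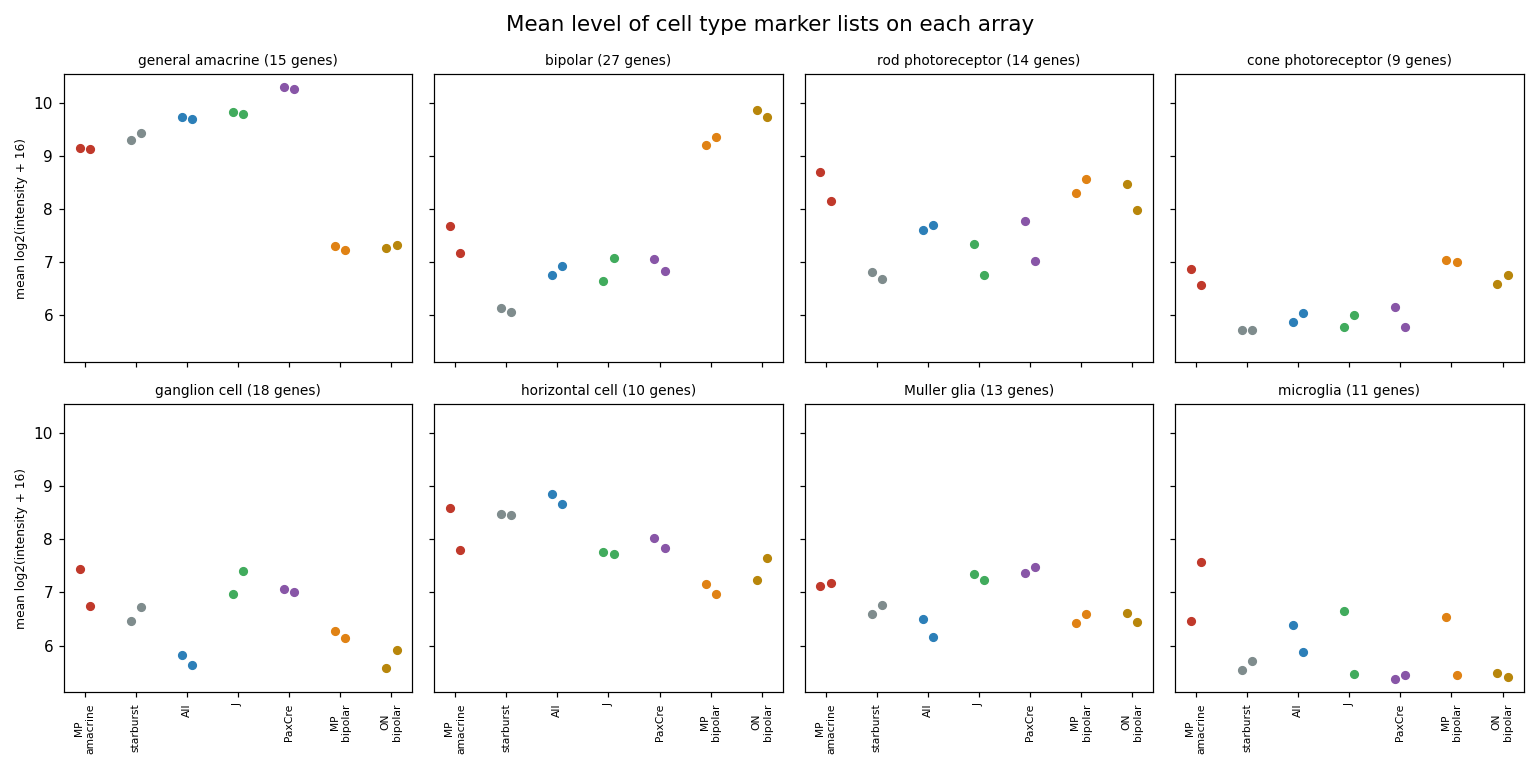
Mean level (log2 of intensity + 16, vertical axis) of 8 lists of cell type marker genes on each array (points) of MP amacrine cells, the 4 other amacrine subtypes and the bipolar subtypes (horizontal axis), with the number of genes in brackets. Each panel shares 1 scale. The rod, cone and bipolar lists are higher on both MP amacrine arrays than on every other amacrine array, and the general amacrine list is lower.

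Of 25 bipolar genes tested, 11 rose and 2 fell in MP amacrine cells, with a median difference of 0.52. These shares of 44% and 8% compare with 5.13% and 5.26% of all tested genes. Without MP amacrine replicate 1 the counts were 4 and 2, and without replicate 2 they were 10 and 0. Prdm8, Neurod4 and Otx2, given above, are among the 11, and Tmem215, a transmembrane protein gene of bipolar cells, rose by 2.54 ± 0.42 but was higher in J cells, at 11.03 and 11.52, than in MP amacrine cells, at 10.56 and 10.17. The list mean was 7.68 and 7.17 on the MP amacrine arrays, against 6.06 to 7.08 on the other amacrine arrays, 9.20 and 9.35 in MP bipolar and 9.87 and 9.73 in ON bipolar cells. Not every bipolar gene was raised: Pcp2, a gene of rod bipolar cells, was at 6.01 and 5.45 in MP amacrine cells, against 5.36 to 5.94 on the other amacrine arrays and 12.29 and 11.80 in ON bipolar cells. The part of rod, cone or bipolar RNA in the rise of Otx2, Neurod4, Prdm8, Nrl and Gngt1 was not tested. In sorted pools such as these, a few cells of another type and a low level in every cell cannot be told apart.

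Of 11 microglial genes 1 rose (0 without MP amacrine replicate 2, 2 without J amacrine replicate 1), and the list mean was 6.47 and 7.56 on the MP amacrine arrays, against 5.37 to 6.66 on the other amacrine arrays. Selenop lay in the same order, with its higher value on MP amacrine replicate 2 and on J amacrine replicate 1, and the part of microglial RNA in it was not tested. Of 17 ganglion cell genes, Ebf1 and Thy1 rose and 0 fell, and the counts were 2 and 4 without MP amacrine replicate 1, and 4 and 0 without MP amacrine replicate 2 or without J amacrine replicate 2. The ganglion cell list mean was 7.44 and 6.74 in MP amacrine cells, against 5.64 to 7.41 on the other amacrine arrays and 9.66 to 10.18 on the ganglion cell arrays. Rbpms, a defining ganglion cell gene, was at 5.51 and 4.73 in MP amacrine cells, against 4.51 to 5.28 on the other amacrine arrays and 10.80 to 11.63 on ganglion cell arrays. The lists that follow are to be read against 5.13% higher and 5.26% lower over all tested genes. Most of them are short, and a single call there is not read as a result about the list. Of 9 horizontal cell genes 2 rose and 1 fell, of 10 Muller glia genes and of 8 vascular genes 0 rose and 1 fell, and of 4 astrocyte genes 0 passed in limma. Over the alternatives other than subtype means, 0 to 2 horizontal cell genes rose and 1 to 2 fell, 0 to 3 Muller glia genes rose and 0 to 2 fell, and 0 to 1 vascular genes rose and 0 to 2 fell. Among the lists not yet given, 2 of 8 Foxp, Satb and Bcl11 factors rose (0 without MP amacrine replicate 2) and 1 fell, 0 of 21 nuclear receptors rose (1 without MP amacrine replicate 2) and 2 fell, and 0 of 8 SOX factors passed in limma, with 0 to 1 in each direction over the alternatives other than subtype means. Of 18 calcium-binding protein genes 2 rose and 3 fell (0 and 5 without MP amacrine replicate 1, 3 and 0 without replicate 2), of 5 connexins 0 rose and 1 fell (0 without MP amacrine replicate 2), and of 13 progenitor genes 1 rose and 1 fell (1 and 0 without MP amacrine replicate 1, 0 and 1 without replicate 2). Of 16 immediate early and stress genes, 2 rose (4 without MP amacrine replicate 1), among them Ier2, at 9.20 and 8.22 in MP amacrine cells, against 6.43, 6.97 and 7.96 (lowest, median, highest) on the other amacrine arrays.

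MP bipolar cells share the line and the strain mix with MP amacrine cells. No array enters the subtype means of both the bipolar and the amacrine comparison. Both comparisons, however, take the error of each gene from the same fit over all subtypes. Overlaps between their calls are therefore not overlaps of independent tests. Set against ON bipolar cells, they differed at 702 genes (5.03%), 341 higher (2.44%) and 361 lower (2.59%). Of the 716 genes higher in MP amacrine cells, 84 were also higher in MP bipolar cells, which is 11.7% of the amacrine list and 24.6% of the bipolar list, and 36 were lower. Of the 734 lower genes, 91 were also lower (12.4% and 25.2%), and 44 were higher. Among the 20 largest rises, 5 were also higher in MP bipolar cells and 2 lower, and among the 20 largest falls 3 were lower and 3 higher. Nfix was 1.47 ± 0.37 higher in MP than in ON bipolar cells (adjusted p = 0.0211), Ppp1r17 1.51 ± 0.34 higher (adjusted p = 0.00763), Nfib 2.83 ± 0.62 higher (adjusted p = 0.00722), Rgs13 2.61 ± 0.56 higher (adjusted p = 0.00549) and AI504432 2.97 ± 0.27 higher (adjusted p = 5.26e-07). Neurod6 and Ebf3 differed by 0.36 ± 0.18 and 0.54 ± 0.40, neither of which passed (adjusted p = 0.342 and 0.614). Tenm4 differed by -2.93 ± 0.33 in MP bipolar cells and so was lower in both MP populations, while Pcdh17 and Zfp521 ran opposite ways in the 2 cell classes, higher in MP bipolar cells by 2.21 ± 0.36 and 1.84 ± 0.46 (adjusted p = 6.79e-06, 4.64e-04 and 0.018). The part of the line and the strain mix in the shared calls was not tested.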

How the data were processed

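RNA of sorted cells from postnatal day 6 retinas was labelled after 2 rounds of amplification and hybridised to single-colour Affymetrix arrays, per the labels' protocols. The deposited values are linear intensities per probe set (45037 besides 64 controls), summarised and scaled by the authors in a way not given in the sources used here. Symbols came from the platform annotation: 34945 probe sets had 1 gene, 932 several and 9160 none. Columns were quantile normalized over 26 arrays as log2(intensity + 16), the brightest of a gene's probe sets was kept (18193 genes), and genes above the overall median of 6.14 on at least 2 arrays were tested (13951).

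Genes were tested two-sided in R 4.3.3 with limma 3.58.1, with 1 mean per subtype, 13 residual and 4.59 prior degrees of freedom, other subtypes weighted equally, and Benjamini-Hochberg adjustment over all tested genes. In simulated data of 13951 genes, some with known changes, the comparison of MP with other amacrine cells recovered 56% of differences of 1 log2 unit, 94% of 1.5 and 100% of 2, with 1 false call. The simulated amacrine subtypes shared 1 mean per gene apart from the added changes, unlike the subtypes compared here. Only 50 genes were changed at each size of difference, far fewer in all than passed in the comparison itself. The 1 false call belongs to that simulation and is no estimate of the false calls among the genes that passed. The 56% is largely set by the threshold of 1 log2 unit. Alternatives were other normalizations, pseudocounts of 4 and 64, other filters, the median over probe sets, other variance models, a replicate block, subtypes or arrays left out and subtype means as units. Precision is limited by 2 arrays per subtype, and p-values measure the spread between such replicates.

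Named genes are the 4 given markers, the 20 largest rises and 20 largest falls among genes that passed with groups that did not overlap, Thy1, and members of 40 lists. Of the list members that passed, the text gives examples with values, picked after values were seen, mostly those that passed in every alternative other than subtype means, and counts the rest. The members and lists were chosen with earlier results of these data known.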

Additional observations from a re-analysis of the deposited data

Results flagged for a closer look

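Probe sets without a single gene symbol lie outside the gene-level comparison. Of 6011 tested in the same way with limma, 365 were higher and 181 lower in MP amacrine cells than in the 4 other amacrine subtypes, 9.08% in all, against 10.4% of the named genes. In 324 of these calls the 2 MP arrays did not overlap the 8 other amacrine arrays, 213 higher and 111 lower. The probe set with the largest rise had a mean level of 10.74 in MP amacrine cells, against 5.74 in the other subtypes (difference 5.01 ± 0.41, adjusted p = 4.70e-07), and the one with the largest fall had 4.34 in MP amacrine cells, against 8.49 in the other subtypes (difference -4.15 ± 0.30, adjusted p = 1.97e-07). These transcripts carry no single name in the annotation used here.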

How the results depend on the processing

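The count of genes that passed between MP and other amacrine cells was 954 with a pseudocount of 64 and 0 with subtype means as units, where limma left 764 genes at an unadjusted p below 0.05. Against J cells it was 939 with a pseudocount of 64. For probe sets without a single gene it was 344 with a pseudocount of 64 and 0 with subtype means as units. Leaving out 1 array at a time gave 1267 to 1545 genes against the 4 subtypes, 1944 to 2862 against starburst, 1367 to 1984 against AII, 1151 to 1745 against J and 1473 to 2074 against PaxCre cells, 534 to 650 between bipolar subtypes and 375 to 668 unnamed probe sets. The lone array left is then assumed to vary like the other subtypes. Same-numbered replicates of different amacrine subtypes did not deviate together (r = -0.133 to 0.174 over 10 pairs), so the number was not taken to pair them. With the replicate block, the count against the 4 subtypes was 1468, with 2562 against starburst, 2045 against AII, 1473 against J, 2105 against PaxCre cells, 727 for bipolar cells and 572 unnamed probe sets. Of 84 named genes that passed, 79 passed in every alternative other than subtype means. The list members among them were mostly picked from genes that did so, so this share does not carry over to all 1450 calls.

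Genes that had not passed changed sign in places, and the cause was not tested. Gad2 differed by -0.0027 with the columns as deposited, -0.0594 at the same median, -0.53 with the median over probe sets, -0.11 without J cells and -0.0047 without starburst replicate 1, and from -0.0938 to 0.207 with 1 array left out. Slc6a9 differed by 0.0235 with the median over probe sets, 0.70 without AII cells, 0.68 without J cells and -0.354 to 0.223 with 1 array left out. Without starburst cells Slc6a9 differed by -1.21 and passed in limma as lower (adjusted p = 1.29e-04). Chat differed by 0.38 without starburst cells, and by -0.259 to 0.0207 with 1 array left out. With the median over probe sets the values were 0.0223 for Slc32a1, -0.38 for Slc6a5 and -0.64 for Nfia, which was -0.0262 without starburst cells. Pcp2 was 0.0363 as deposited, 0.0322 without J cells, 0.0281 without PaxCre cells and -0.305 to 0.26 with 1 array left out, and Rbpms was then -0.272 to 0.509. Differences of 1 log2 unit were recovered in 56% of simulated cases, and a gene with that true difference often does not pass. A gene passes only where its estimate is 1 log2 unit or more. The 56% therefore largely reflects this threshold and is no measure of what 2 arrays per subtype can detect.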
